A study of Homo sapiens with 8 samples.

Results

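The genes described are 8 ligands and receptors of the interleukin 1 (IL1) family, namely IL1A, IL1B, IL1RN, IL1R1, IL1R2, IL1RAP, IL18 and IL33, out of 19775 genes measured. They were chosen by symbol. Each was represented by its brightest probe set, taken among those annotated to 1 symbol alone by mean level across all 8 arrays. All 8 were found, on 17 of the 54675 probe sets.

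Expression was measured on Affymetrix HG-U133_Plus_2 arrays in HuCCT1, an established human line of bile duct cancer cells. In 4 samples the cells had an shRNA against YAP1, labelled YAP shRNA 1, and in 4 a scrambled control shRNA. Doxycycline, which turns on the shRNA, was given to both groups at 100 ng/ml, 3 days ahead of seeding. The comparison asks how transcripts differ when YAP1, the transcriptional coactivator at the end of the Hippo pathway, is knocked down. The labels name 1 shRNA sequence and 1 cell line, and nothing in them tells whether each replicate is a culture of its own; the p-values given here therefore cover the spread among these 8 samples, part of which may be technical. The title of the series names both YAP overexpression and an shRNA against YAP, and the labels and the design text name the shRNA alone. YAP1 stood at 10.40, 10.55, 10.51 and 10.54 on the log2 scale in YAP shRNA arrays, against 12.59, 12.61, 12.77 and 12.60 in control shRNA arrays, a log2 fold change of -2.14 ± 0.056 (SE; limma adjusted p = 6.15e-07).

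IL1A and IL1B are the IL1 cytokines. Both bind the receptor IL1R1, which signals once it has recruited the accessory chain IL1RAP, and the signal runs through MYD88, IRAK kinases and TRAF6 to NF-kB. IL1RN is a receptor antagonist that occupies IL1R1 without signalling, and IL1R2 is a decoy receptor that binds IL1 but has no signalling domain. IL18 is made as a precursor and released after cleavage by caspase 1, as is IL1B. IL33 is a nuclear alarmin that signals through IL1RL1 together with IL1RAP. Epithelial cells, those of bile ducts included, can make several of these ligands, and the array measures their RNA, not the processed or released protein.

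The promoter letters of 4 of the genes that rose are shown, since they rose together. They are the 250 bases before the outermost RefSeq start that the promoter table holds for each gene, on the strand of the gene in GRCh38.p14, from chr2:112784494-112784743 (minus strand) for IL1A, chr2:112836780-112837029 (minus) for IL1B, chr2:113117721-113117970 (plus) for IL1RN and chr2:101991710-101991959 (plus) for IL1R2. IL1A, IL1RN and IL1R2 have 2, 3 and 2 starts in that table. Capitals mark letters that match a motif described in the next paragraph.
IL1A: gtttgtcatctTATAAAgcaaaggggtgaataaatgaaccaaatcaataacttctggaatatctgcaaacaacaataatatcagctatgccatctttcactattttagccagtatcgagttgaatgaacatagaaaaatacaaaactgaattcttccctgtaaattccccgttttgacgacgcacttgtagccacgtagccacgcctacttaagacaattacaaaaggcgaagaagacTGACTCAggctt
IL1B: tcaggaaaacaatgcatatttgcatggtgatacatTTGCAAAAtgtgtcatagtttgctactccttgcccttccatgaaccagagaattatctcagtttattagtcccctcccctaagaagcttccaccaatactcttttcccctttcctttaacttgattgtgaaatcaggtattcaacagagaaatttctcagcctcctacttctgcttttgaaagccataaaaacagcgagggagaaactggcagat
IL1RN: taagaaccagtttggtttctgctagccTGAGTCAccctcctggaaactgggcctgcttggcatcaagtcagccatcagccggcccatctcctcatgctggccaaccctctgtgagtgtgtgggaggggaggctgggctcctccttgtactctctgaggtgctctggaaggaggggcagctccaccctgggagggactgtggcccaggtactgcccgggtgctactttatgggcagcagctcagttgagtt
IL1R2: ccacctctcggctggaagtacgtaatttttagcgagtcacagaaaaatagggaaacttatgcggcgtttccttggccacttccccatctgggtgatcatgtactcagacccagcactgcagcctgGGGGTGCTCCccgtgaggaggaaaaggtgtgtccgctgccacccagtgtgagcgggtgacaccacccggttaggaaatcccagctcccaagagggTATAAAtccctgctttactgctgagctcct

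The letters of 5 motifs were searched on both strands: GGAATG for TEAD, the DNA-binding partner of YAP, TGANTCA for AP-1, the NF-kB consensus, TTGCNNAA for C/EBP and TATAAA for the TATA box. TGANTCA reads the same on both strands and was counted once, and no matches overlapped in the windows shown. IL1A held TGACTCA, whose first base lies 12 bases before the start, and IL1RN held TGAGTCA 223 bases before it. Such an AP-1 match occurred in 6.57% of 35116 RefSeq promoter windows of this length. IL1R2 held an NF-kB match 125 bases before its start, present in 9.96% of windows, and TATAAA 30 bases before it, present in 10.7%. IL1A also held TATAAA, 239 bases before its start. IL1B held TTGCAAAA 215 bases before its start, a C/EBP match present in 9.05% of windows. GGAATG, found in 11.9% of windows, was in none of these 4 windows, nor in those of IL1R1, IL1RAP and IL33, which held none of the motifs. These matches describe letters in a short window and say nothing of binding.

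Of the 8 genes, 4 rose, 1 fell and 3 did not pass the test (limma on log2 values, called at a p below 0.05 after Benjamini-Hochberg adjustment across the 19775 genes). Over all genes, 16.7% were called, 9.49% as risen and 7.17% as fallen, and among genes at or above the median level of 7.44 the share was 26.6%. The median log2 fold change was 0.24 over the 8 and 0.01 over all genes. The groups did not overlap for the same 5 genes, where 24.3% of all genes showed no overlap. Array medians lay between 6.22 and 6.25. Control shRNA replicate 4 stood apart on the second principal component, at 22.95 against -12.29 to 6.39 for the other arrays, and without it the same counts held, 4 risen and 1 fallen. The 3' minus 5' difference of the GAPDH control probe sets, a sign of RNA quality, was 0.178 ± 0.0114 in YAP shRNA arrays and 0.198 ± 0.0116 in control shRNA arrays (SD, n = 4 each; two-sided exact permutation p = 0.0857). The same measure of ACTB was 1.02 ± 0.092 in YAP shRNA arrays and 0.99 ± 0.088 in control shRNA arrays (exact permutation p = 0.686).

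**Figure D1:**
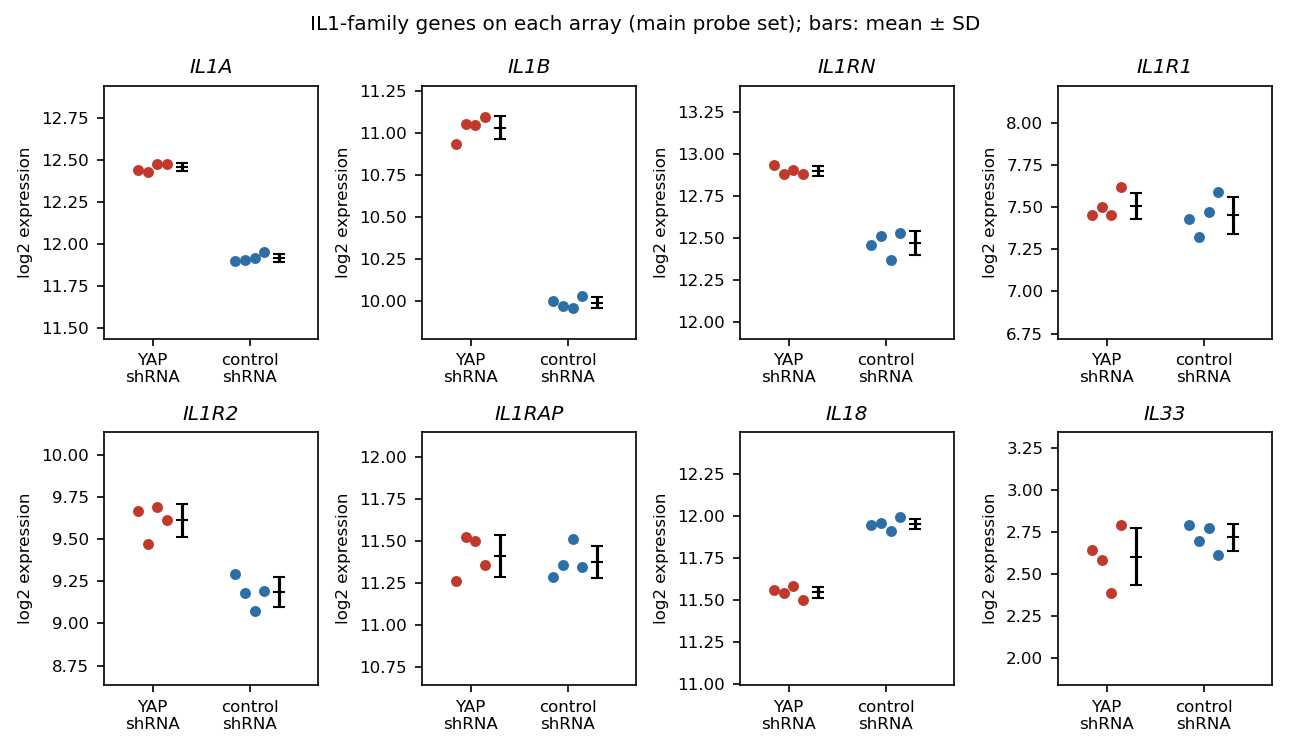
Log2 expression of the 8 genes on each array, with YAP shRNA arrays in red and control shRNA arrays in blue, and the mean ± SD of each group beside its points. Every panel spans 1.5 log2 units. IL1A, IL1B, IL1RN and IL1R2 lay higher and IL18 lower on all 4 YAP shRNA arrays, and the groups overlapped for IL1R1, IL1RAP and IL33.

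IL1B had the largest change of the family. It stood at 10.93, 11.05, 11.04 and 11.09 in YAP shRNA arrays, against 10.00, 9.97, 9.96 and 10.03 in control shRNA arrays. Every YAP shRNA array lay above every control array, by more than the range within either group. The mean was 11.03 ± 0.069 in YAP shRNA arrays and 9.99 ± 0.032 in control shRNA arrays (SD, n = 4 each), a 2.06-fold rise or 1.04 ± 0.045 on the log2 scale (SE; limma adjusted p = 8.89e-06). Its second probe set gave a similar rise, 1.07. IL1B ranked 58 by size among the 1876 genes that rose. The two-sided exact permutation p was 0.0286, the smallest that 4 arrays against 4 allow, and the same held for each of the 5 called genes. A change in these samples may come from more RNA per cell or from more cells that express the gene, which cannot be told apart here.

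IL1A, the ligand that is active without cleavage, rose on its brightest probe set. It stood at 12.44, 12.43, 12.48 and 12.48 in YAP shRNA arrays, against 11.90, 11.90, 11.92 and 11.95 in control shRNA arrays. The 2 sets of values were tight and did not overlap. The rise was 1.45-fold, or 0.54 ± 0.035 on the log2 scale (SE; limma adjusted p = 4.06e-05). The second IL1A probe set did not follow. It was dim, at 4.91 ± 0.38 in YAP shRNA arrays and 5.12 ± 0.30 in control shRNA arrays (SD, n = 4 each), and its log2 fold change was -0.21 ± 0.21 (SE; limma adjusted p = 0.597 over all single-symbol probe sets). The call on IL1A therefore rests on 1 probe set, and it was lost when the probe sets were averaged (0.17, limma adjusted p = 0.345) or when the brightest one, of the kind that can detect several transcripts, was left out.

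IL1RN, the antagonist, rose alongside the ligands. It stood at 12.94, 12.88, 12.90 and 12.88 in YAP shRNA arrays, against 12.46, 12.51, 12.37 and 12.53 in control shRNA arrays. The groups did not overlap. The rise was 1.35-fold, or 0.43 ± 0.045 on the log2 scale (SE; limma adjusted p = 0.000391). All 5 IL1RN probe sets rose, and the brightest one gave the smallest change: the other 4 gave log2 fold changes of 0.83, 0.74, 0.79 and 0.54 (limma adjusted p = 9.2e-05, 0.000338, 0.000113 and 0.0119 over all single-symbol probe sets).

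Whether the ligands and the antagonist changed equally was tested as a log2 difference within each array. IL1B minus IL1RN was -1.87 ± 0.095 in YAP shRNA arrays and -2.48 ± 0.055 in control shRNA arrays (SD, n = 4 each), so IL1B rose by 0.61 more than IL1RN (two-sided exact permutation p = 0.0286, 0.0429 adjusted over 3 pairs). The size of that gap depends on the IL1RN probe set: it was 0.39 with the mean of the probe sets and 0.25 without probe sets whose ID ends in _x_at or _s_at. IL1A minus IL1RN was -0.44 ± 0.040 in YAP shRNA arrays and -0.55 ± 0.068 in control shRNA arrays, a difference of 0.11 with overlapping groups (exact permutation p = 0.0571, also after adjustment). Its sign turned with the probe set, to -0.50 with the mean of the probe sets and -1.001 without those whose ID ends in _x_at or _s_at. Both of these passed (exact permutation p = 0.0286, also after adjustment over 3 pairs). The difference of 0.14 without control shRNA replicate 3 passed too (exact permutation p = 0.0286). Both reversed values use the dim second IL1A probe set, at 4.91 ± 0.38 in YAP shRNA arrays and 5.12 ± 0.30 in control shRNA arrays. It is averaged in for the first and stands alone for IL1A in the second. The IL1RN side changed too. IL1RN rose by 0.43 on its brightest probe set, by 0.67 with the mean and by 0.79 without _x_at and _s_at probe sets. IL1A rose by 0.54 on its brightest probe set. Whether IL1RN rose more than IL1A depends on the probe sets of both genes, and neither reversed value settles it.

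**Figure D2:**
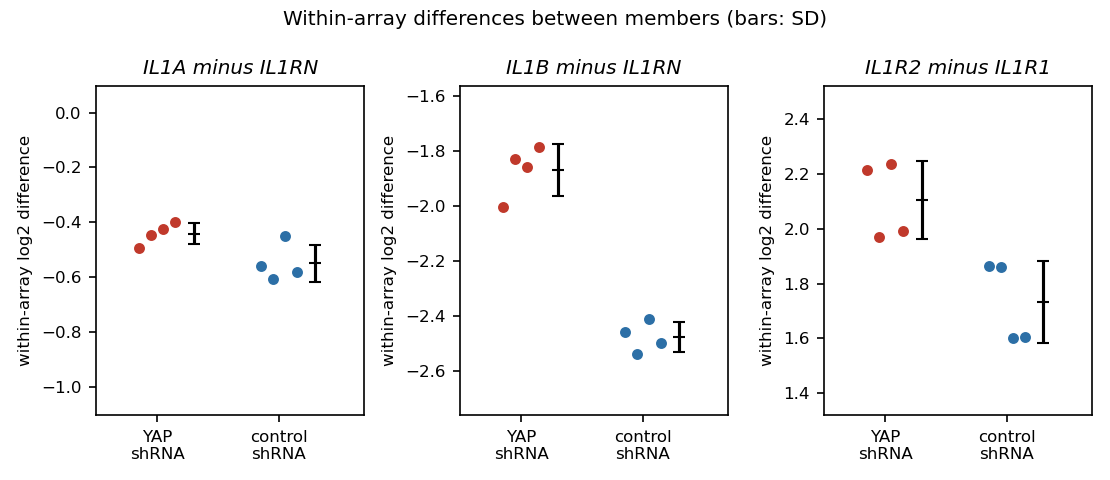
Log2 difference between 2 genes within each array, with YAP shRNA arrays in red and control shRNA arrays in blue and the mean ± SD beside the points. Every panel spans 1.2 log2 units. IL1B minus IL1RN and IL1R2 minus IL1R1 were higher on all 4 YAP shRNA arrays, while IL1A minus IL1RN overlapped between the groups. The level of such a difference depends on the probe sets, and only its shift between groups can be read.

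IL18 was the member that fell. It stood at 11.56, 11.54, 11.58 and 11.50 in YAP shRNA arrays, against 11.95, 11.95, 11.91 and 11.99 in control shRNA arrays. The highest YAP shRNA value was under the lowest control value. Its mean was 11.54 ± 0.035 in YAP shRNA arrays and 11.95 ± 0.032 in control shRNA arrays (SD, n = 4 each), so IL18 was at 75.5% of its control level (log2 fold change -0.41 ± 0.037 SE; limma adjusted p = 0.000222). It has 1 probe set. IL18BP, the secreted protein that binds and neutralises IL18, rose by 0.22 (limma adjusted p = 0.0244), and that call was lost under 7 of 17 other settings.

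IL33 was too dim for a change to be read. It stood at 2.65, 2.59, 2.39 and 2.80 in YAP shRNA arrays, against 2.79, 2.70, 2.77 and 2.62 in control shRNA arrays. These values overlap and lie near the lowest deposited value, 1.72. The log2 fold change was -0.12, with a 95% interval of -0.31 to 0.08 (limma adjusted p = 0.426).

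Of the receptors, the decoy IL1R2 rose. It stood at 9.67, 9.47, 9.69 and 9.61 in YAP shRNA arrays, against 9.30, 9.18, 9.07 and 9.20 in control shRNA arrays, with no overlap. The rise was 1.34-fold, or 0.43 ± 0.065 on the log2 scale (SE; limma adjusted p = 0.00265), and the second IL1R2 probe set gave the same value, 0.43 (limma adjusted p = 0.000443 over all single-symbol probe sets).

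IL1R1, the signalling receptor, stood at 7.46, 7.50, 7.46 and 7.62 in YAP shRNA arrays, against 7.43, 7.32, 7.47 and 7.59 in control shRNA arrays. The groups overlapped, and IL1R1 differed by 0.05 on the log2 scale, with a 95% interval of -0.09 to 0.20 (limma adjusted p = 0.648). The second IL1R1 probe set gave 0.07 (limma adjusted p = 0.526). IL1R2 minus IL1R1 was 2.10 ± 0.141 in YAP shRNA arrays and 1.73 ± 0.149 in control shRNA arrays (SD, n = 4 each), so the decoy rose by 0.37 more than the signalling receptor (two-sided exact permutation p = 0.0286, 0.0429 adjusted over 3 pairs).

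IL1RAP, the accessory chain shared by the IL1 and IL33 receptors, stood at 11.26, 11.53, 11.50 and 11.36 in YAP shRNA arrays, against 11.29, 11.36, 11.52 and 11.34 in control shRNA arrays. The groups overlapped, and IL1RAP differed by 0.04 on the log2 scale, with a 95% interval of -0.13 to 0.20 (limma adjusted p = 0.811). Its second probe set differed in sign, at 8.77 ± 0.12 in YAP shRNA arrays and 9.06 ± 0.13 in control shRNA arrays (SD, n = 4 each), and it too missed the threshold (log2 fold change -0.28 ± 0.084 SE; limma adjusted p = 0.058 over all single-symbol probe sets). Which transcripts each IL1RAP probe set detects is not given in the sources used here.

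**Figure D3:**
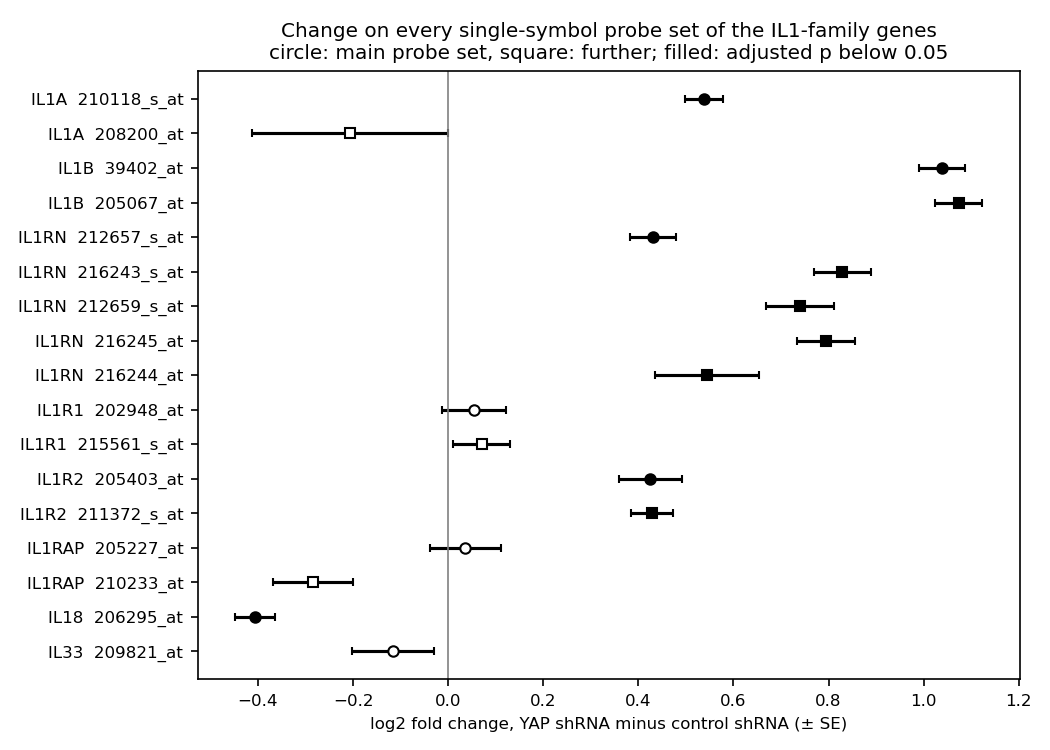
Log2 fold change, YAP shRNA minus control shRNA, with its SE, for each of the 17 probe sets of the 8 genes. Circles are the brightest probe set of a gene and squares the others, and filled symbols passed the test over all single-symbol probe sets. The probe sets of IL1B, IL1RN and IL1R2 lay on the same side of 0 and passed, while those of IL1A and of IL1RAP lay on opposite sides.

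The ligand genes IL1A, IL1B and IL1RN lie in a row on chromosome 2, while IL18 lies on chromosome 11 and IL33 on chromosome 9. The changes along that row were set out in gene order after the members' values had been seen. From IL1A to IL1RN the RefSeq table of GRCh38.p14 gives 9 measured protein-coding genes in a row, all of the IL1 superfamily. Of these, 5 rose and 0 fell, and all 9 log2 fold changes were above 0, from 0.03 to 1.04. Over all genes, 9.49% rose, and 10660 of 19775 log2 fold changes were above 0. The 5 include the members IL1A, IL1B and IL1RN, already counted above, and 5 of the 9 genes lay below the median gene level. Besides the members, IL37, an anti-inflammatory ligand of the superfamily, rose. It lay between 9.77 and 9.94 in the 4 YAP shRNA arrays, against 8.95 to 9.13 in the 4 control shRNA arrays, a rise of 0.79 ± 0.060 (SE; limma adjusted p = 9.7e-05), and both of its probe sets rose. IL36A, another ligand of the superfamily, rose by 0.19 (limma adjusted p = 0.0453) from a dim level, and that call was lost under 13 of 17 other settings. The dim genes IL36G, IL36B, IL36RN and IL1F10 missed the threshold, at log2 fold changes of 0.35, 0.03, 0.10 and 0.06. Among the 3 measured genes on either side, PSD4 and PAX8, next to IL1RN, rose by 0.30 and 0.27, and NT5DC4, near IL1A, fell by 0.40 (limma adjusted p = 0.00587, 0.00201 and 0.00479). The median log2 fold change of the 1309 measured genes of chromosome 2 was 0.00, and 16.7% of them were called.

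Receptor genes of the superfamily, IL1R1 and IL1R2 among them, form a second row on chromosome 2, of 6 genes from IL1R2 to IL18RAP. IL1RAP is not part of it and lies on chromosome 3. IL1R2 rose and the other 5, IL1R1, IL1RL2, IL1RL1, IL18R1 and IL18RAP, did not pass, with log2 fold changes between -0.19 and 0.05. Over all genes 16.7% were called, and 4 of the 6 genes of this row lay below the median gene level. IL1RL1 is the IL33 receptor, and IL18R1 and IL18RAP form the IL18 receptor. MAP4K4, next to IL1R2, rose by 0.16 (limma adjusted p = 0.0125).

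**Figure D4:**
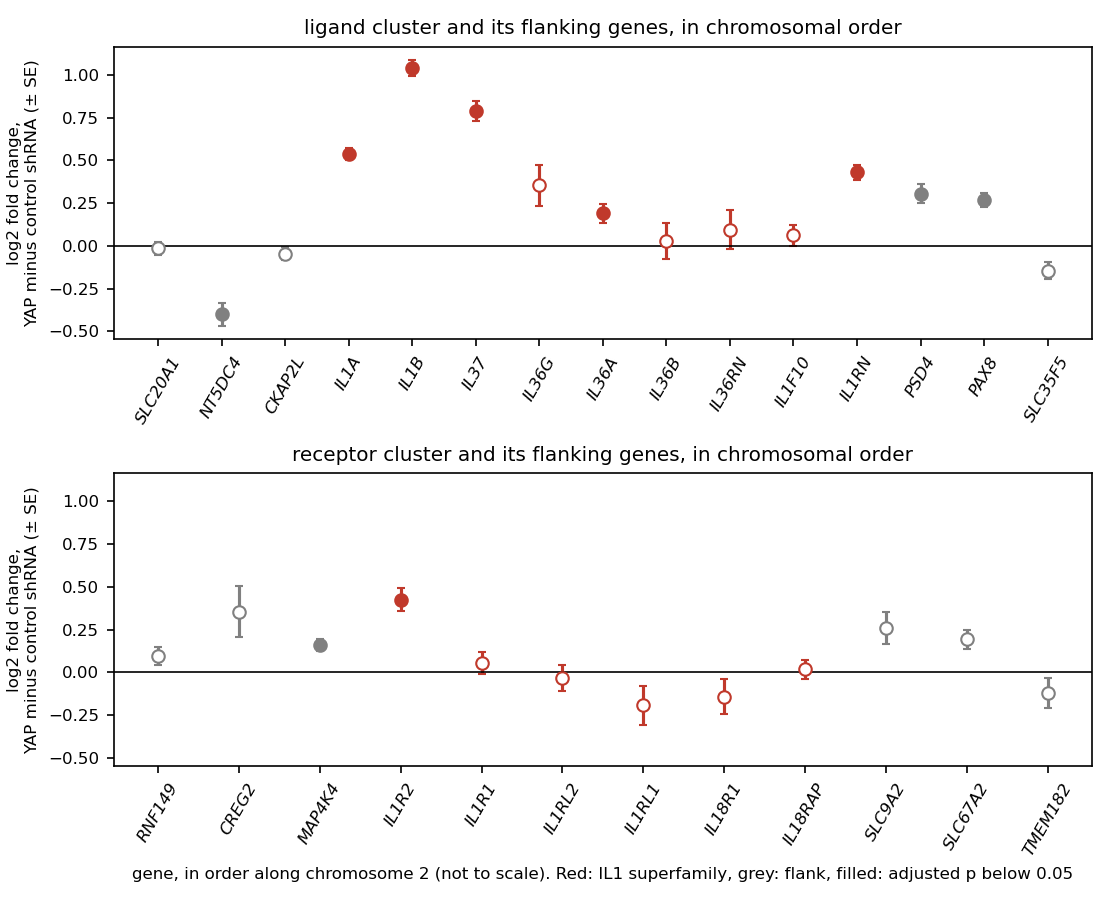
Log2 fold change, YAP shRNA minus control shRNA, with its SE, for measured protein-coding genes in their order along chromosome 2, not to scale. Red marks genes of the IL1 superfamily, grey the 3 genes on either side, and filled symbols passed the test. All 9 genes from IL1A to IL1RN lay above 0, and of the receptor row IL1R2 passed.

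Beyond the members, the other 14 genes of the IL1 superfamily gave 4 rises and 0 falls, or 28.6% called, with a median log2 fold change of 0.05, where 16.7% of all genes were called and 9.49% rose. SIGIRR, an inhibitory receptor of the family, stood at 10.60, 10.62, 10.57 and 10.59 in YAP shRNA arrays, against 10.26, 10.19, 10.26 and 10.14 in control shRNA arrays, a rise of 0.38 (limma adjusted p = 0.000421). The others that rose were IL37, IL18BP and IL36A. Of the 14, 11 lay below the median gene level. The count fell to 2 without YAP shRNA replicate 1, 3 or 4 or without control shRNA replicate 3.

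Some genes of the machinery that processes and releases IL1 and IL18 rose. Of 16, 4 rose and 1 fell, or 31.2%, with a median log2 fold change of 0.05. Of all genes 16.7% were called, and 26.6% of those at or above the median level, where all but 5 of the 16 lay. AIM2, a sensor of cytosolic DNA that assembles an inflammasome, averaged 7.56 ± 0.21 in YAP shRNA arrays and 6.57 ± 0.25 in control shRNA arrays (SD, n = 4 each), a rise of 0.99 ± 0.14 (SE; limma adjusted p = 0.00182). GSDMD, the pore-forming gasdermin D through which mature IL1B leaves the cell, rose by 0.54 (limma adjusted p = 0.000619). PYCARD, the adaptor that joins sensors to caspase 1, rose by 0.49 (limma adjusted p = 0.0007). S100A13, which takes part in the export of IL1A, rose by 0.25 (limma adjusted p = 0.00407). Of the 2 S100A13 probe sets 1 passed, and the other had a log2 fold change of 0.04. The sensor NLRP1 fell by 0.33 (limma adjusted p = 0.032), a call lost under 9 of 17 other settings. CASP1, the protease that cleaves IL1B and IL18, and the sensor NLRP3 missed the threshold, at 0.07 and -0.06.

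Signalling genes below the receptors were called at a share close to the 26.6% of genes at or above the median level. Of 19 measured, 4 rose and 1 fell, or 26.3%, and the median log2 fold change was -0.02. IKBKB, a kinase of the IKK complex that activates NF-kB, rose by 0.34 (limma adjusted p = 0.00697). Of its 3 probe sets 1 passed, with log2 fold changes between 0.14 and 0.34. IRAK2, a kinase of the receptor complex, rose by 0.31 (limma adjusted p = 0.0118), a call lost with the mean of probe sets (0.19, limma adjusted p = 0.0827). TRAF6, the ubiquitin ligase of the pathway, rose by 0.21, TIFA, an adaptor that binds TRAF6, by 0.16, and TOLLIP, an inhibitor of IRAK1, fell by 0.22 (limma adjusted p = 0.0356, 0.0446 and 0.0335). These 3 calls were lost under 9, 13 and 8 of 18 other settings. MYD88, the adaptor that the signalling IL1 receptor complex recruits, had a log2 fold change of 0.09 (limma adjusted p = 0.338). The count of called genes was 2 without any 1 YAP shRNA array, and 3 without control shRNA replicate 1, 2 or 3.

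Genes that IL1 is known to induce moved in both directions. Of 22 measured, 3 rose and 5 fell, or 36.4%, with a median log2 fold change of -0.07. All but 2 of the 22 lay at or above the median level, where 26.6% of all genes were called. The cytokines IL11 and IL6 had the largest falls. IL6 averaged 10.47 ± 0.095 in YAP shRNA arrays and 12.07 ± 0.12 in control shRNA arrays (SD, n = 4 each), a fall of 1.60 on the log2 scale (log2 fold change -1.60; limma adjusted p = 1.15e-05), and IL11 fell by 2.74 (limma adjusted p = 2.67e-05). The chemokine genes CXCL2 and CXCL8 fell by 0.46 and 0.39 (limma adjusted p = 0.0117 and 0.0257), and CCL20 was the other gene to fall. Of the 3 CXCL2 probe sets 1 passed, with log2 fold changes between -0.46 and -0.02, and the CXCL2 call was lost with the mean of probe sets and without _x_at and _s_at probe sets (limma adjusted p = 0.0549 and 0.0555). CCL2, a monocyte attractant, rose by 0.93, and the NF-kB inhibitors NFKBIA and TNIP1 rose by 0.35 and 0.20 (limma adjusted p = 0.00257, 0.00171 and 0.00368). PTGS2, ICAM1, SOD2 and LCN2 had log2 fold changes between -0.08 and 0.07 and did not pass. In control shRNA replicate 4, CCL2 stood at 7.84 and CXCL8 at 11.785, against 8.38 to 8.48 and 11.35 to 11.39 in the other control arrays. Without it, 10 of the 22 genes were called. The call on CXCL8 was lost without any 1 of the 4 YAP shRNA arrays (limma adjusted p = 0.0561 to 0.0699). In the fit over all single-symbol probe sets, both CXCL8 probe sets fell, with log2 fold changes of -0.74 and -0.39.

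**Figure D5:**
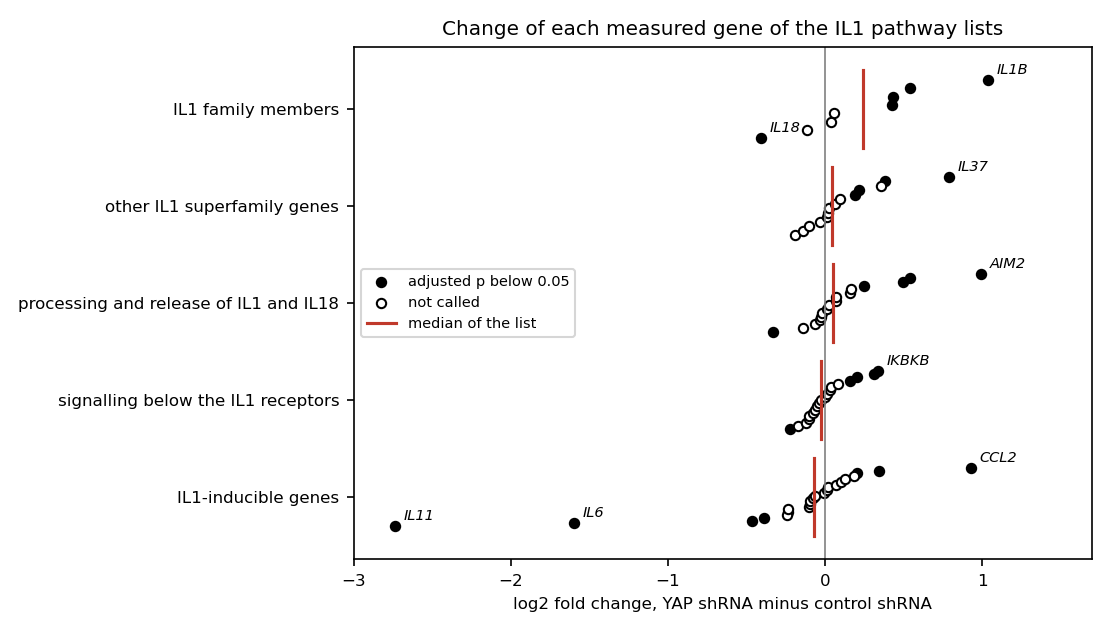
Log2 fold change, YAP shRNA minus control shRNA, of each measured gene in the family and in the 4 lists around it, with a red line at the median of each list. Filled points passed the test. Most points lay near 0, IL1B, IL37 and AIM2 stood highest in their lists, and IL11 and IL6 lowest among the genes that IL1 can induce.

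The genes whose pattern over the 8 arrays was most like that of a called member were named by Pearson correlation among 9887 genes at or above the median level. These correlations share the arrays and mostly express the difference between the 2 groups. For IL1B they were GNA15, MUC20 and IL1A (r = 0.998, 0.998 and 0.997), and for IL1A they were ZG16B, VPS28 and IL1B (r = 0.999, 0.997 and 0.997). For IL1RN they were SLC39A11, SLFN5 and PLPP5 (r = 0.997, 0.995 and 0.995), for IL1R2 they were NDUFB2, TMEM51-AS1 and LRP10 (r = 0.989, 0.985 and 0.982), and for IL18 they were GLIPR1, SEPTIN10 and CKS2 (r = 0.999, 0.998 and 0.998). With each group's mean removed, the pairs named here correlated at 0.53 (IL1A with IL1B, the lowest) to 0.98 (IL18 with GLIPR1, the highest) over the 8 arrays. The pairs were picked by correlation over these same 8 arrays, so these values are no separate check of them.

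Leukocytes are a main source of IL1, so their markers were read beside the members. All 11 measured leukocyte markers lay below the median gene level, and their mean level was 4.89 to 4.99 in YAP shRNA arrays and 4.76 to 4.92 in control shRNA arrays. Of the 11, 3 rose, 1 fell and 7 did not pass, or 36.4% called, where 16.7% of all genes were called. LYZ, CD14 and CSF1R rose by 0.86, 0.46 and 0.31 (limma adjusted p = 0.00516, 0.0112 and 0.0235). The call on LYZ was lost without _x_at and _s_at probe sets (limma adjusted p = 0.0559), and that on CSF1R without YAP shRNA replicate 3 or 4 (limma adjusted p = 0.0696 and 0.0682). Other myeloid markers, TYROBP, S100A8, ITGAM and CD163, stood at log2 fold changes of -0.08, -0.27, 0.03 and 0.18 and missed the threshold. PTPRC, the pan-leukocyte antigen CD45, was dim, with means of 3.74 in YAP shRNA arrays and 3.96 in control shRNA arrays (limma adjusted p = 0.0408, a call lost under 11 of 16 other settings). The T cell marker CD3E and the B cell marker MS4A1 were also dim, with mean levels of 3.12 and 4.35 over the 8 arrays. The part of other cells in the changes of the IL1 family was not tested.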

How the data were processed

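RNA of 8 HuCCT1 samples, 4 with the YAP shRNA and 4 with a control shRNA, was amplified by a NuGEN method before biotin labelling, per the labels' protocols. The authors deposited log2 values for every probe set on each array. Base 2 is inferred, since values run between 1.72 and 14.89; background correction, summarisation and normalization were not given in the sources used here. No further normalization was applied, and values carry no detection call. Precision is limited by the 8 arrays.

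GEO's platform annotation, which can be old, gave 1 symbol to 41097 of 54675 probe sets, several to 1801 and none to 11777. Probe sets with 1 symbol were used, the brightest per gene. By Entrez ID, 19735 of 19775 genes matched the RefSeq table of GRCh38.p14, used for gene order and chromosomes. Promoter sequences are RefSeq's, and 7 of the 8 members matched that table.

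The fit was limma 3.58.1 in R 4.3.3 with empirical Bayes moderation and no block or filter, called at adjusted p below 0.05 (Benjamini-Hochberg). It was tested on simulated data. The members and the lists were chosen with earlier results of these data known. Named genes are YAP1, the 8 members, up to 4 called genes per direction of each list (or the smallest adjusted p) and the 3 most correlated genes per called member. Genes named outside that rule were chosen after their values were seen: CCL20, CASP1, NLRP3, MYD88, PTGS2, ICAM1, SOD2, LCN2, CD3E, MS4A1, TYROBP, S100A8, ITGAM, CD163, KRT7, KRT8, KRT18, EPCAM, SOX9 and those of the 2 gene rows. IRAK4, UBE2V1, MAPK14, CSF2, BIRC3, ZC3H12A, CD68 and FCGR3A, of the lists, had no row by that symbol here. The 18 alternatives are in the closing section. Same-numbered arrays did not deviate together (correlations of -0.21 to 0.00), so replicate numbers were not used as pairs. Figures were drawn with matplotlib 3.10.9.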

Additional observations from a re-analysis of the deposited data

Results flagged for a closer look

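In 100 groups of 4 values, 6 had 1 array far from the other 3 by Dixon's criterion, where chance gives about 5. CCL2 was low at 7.84 in control shRNA replicate 4 (8.38 to 8.48 in the others). In the same array CXCL8 was high at 11.785 (11.35 to 11.39 in the others) and IRAK2 was high at 12.01 (11.77 to 11.80). In control shRNA replicate 3, YAP1 was high at 12.77 (12.59 to 12.61) and TNIP1 low at 12.58 (12.61). IL36A was low at 5.46 in YAP shRNA replicate 2 (5.63 to 5.66). No probe set of the 8 family members was among them.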

How the results depend on the processing

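Over 18 alternatives, which were quantile normalization, median centring, 2 limits on dim genes, averaging over probe sets, leaving out those with IDs ending in _x_at or _s_at, every probe set tested, trend and robust moderation, array weights, a replicate block and each of 8 arrays left out, IL1B, IL1RN, IL1R2 and IL18 kept their direction and call, with highest adjusted p of 0.00157, 0.0101, 0.0194 and 0.00947. IL1A kept its call in 16 of them. It was 0.17 with the mean of probe sets and turned to -0.21 (limma adjusted p = 0.600) without _x_at and _s_at probe sets, because a dim probe set then stands for it. IL1A minus IL1RN was -0.50 and -1.001 under these settings, and 0.14 without control shRNA replicate 3, with a range of 0.0893 to 0.141 over arrays left out. The replicate block gave 2106 genes called, against 3294 without it, lowered the other superfamily genes to 2 and the signalling genes to 1, ended the calls on IRAK2 and CSF1R (limma adjusted p = 0.0724 and 0.0636) among others, and changed no call on the 8 members. Both limits on dim genes leave out IL33. Without _x_at and _s_at probe sets, 1 superfamily gene, 2 signalling genes and 4 IL1-inducible genes were called, and with the mean of probe sets 2 signalling genes. With an array left out, superfamily genes called numbered 2 to 4 and signalling genes 2 to 4. The cause of these moves in the lists was not tested. Low signal limits IL33, the second IL1A probe set and most IL36 genes.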

Other observations

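Markers of bile duct epithelium were at the bright end of the arrays, and 2 of 7 measured rose. CDH1, the epithelial cadherin, rose by 0.33 (limma adjusted p = 0.000376) and KRT19, a duct keratin, by 0.15 (limma adjusted p = 0.0137). KRT7, KRT8, KRT18, EPCAM and SOX9 had log2 fold changes between -0.08 and 0.01 and did not pass. Of 9 fibroblast markers, COL1A1 rose by 0.52 (limma adjusted p = 0.00316) and 8 did not pass, and 8 of the 9 lay below the median gene level. None of 7 endothelial markers passed by limma, all of them below that level, and PECAM1 came nearest, with a log2 fold change of 0.25 (limma adjusted p = 0.162; 0.0465 unadjusted).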
